A study of Homo sapiens with 238 samples.

Results

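The 10 genes FGF13, LRATD1, S100A6, VGLL3, CALN1, ELSPBP1, ETS1, IL1RAP, FSTL5 and USP44 were examined as genes that were switched on or off by clone. They were chosen from the counts scaled per 1e6 counts of a library (CPM, with edgeR's TMM library sizes) in these same libraries, because each was near 0 in some cell lines, or in FGF13 in some replicates of 2 lines, and clearly expressed in others, so their levels and the differences between lines are given as a description. They are 10 of 62696 counted genes. For every gene a line was called on where all its libraries reached 1 CPM, off where all stayed under 0.5 CPM, and between otherwise. By these limits 2151 of 62696 genes (3.43%) were on in at least 1 line and off in at least 1 other, or 12.6% of the 17016 genes that were on in at least 1 line.

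The libraries came from K562, a human erythroleukemia line that expresses embryonic, fetal and α-globin genes, and from clones of it in which a guanine-quadruplex (G4) motif, a guanine-rich stretch that can fold into a 4-stranded DNA structure, had been edited in a globin enhancer. Poly(A) RNA was counted per gene in 62 libraries of 12 lines. The α series had the lines αRes1 and αRes2 (n = 8 each) and αRes3 and αRes4 (n = 4 each), in which a different G4 motif was inserted into αMut1 cells. It also had αMut1 (n = 7) and αMut2 (n = 4), with the G4 motif of the HS-40 enhancer mutated, and unedited αWT (n = 8). The β series had βMut-HS3Δ (n = 3), with the HS2 G4 motif mutated and the HS3 enhancer deleted, and βMut1 and βMut2 (n = 4 each), with the HS2 G4 motif mutated. It also had WT-HS3Δ (n = 4), with HS3 deleted only, and unedited βWT (n = 4). The study reports αMut1, αMut2, βMut1 and βMut2 as homozygous for their G4 mutations. All lines are K562 cells, no treatment or time was labelled, and the cells edited by CRISPR-Cas9 at the G4 motifs were sorted to 1 cell per well, so each such line was to stand for 1 clone. The labels number the replicates without saying that they came from separate cultures, and p-values then measure only the spread between these libraries.

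Total counts were between 4270215 and 48671570 per library (median 27764236), with 1 library under 10000000 (αRes2 replicate 3). All 11 of 11 K562 markers were at 1 CPM or more in every library. Summed T cell markers reached at most 2.86 CPM and B cell markers at most 3.24 CPM, whereas monocyte markers were between 4.98 and 211 CPM (LYZ), fibroblast markers between 0.351 and 55.6 CPM (COL1A1), epithelial markers between 26.8 and 157 CPM (EPCAM) and megakaryocyte markers between 1.32 and 23.0 CPM (ITGA2B, at 1 CPM or more in every library), with CD8A, CD2, MS4A1, CSF1R, PF4, GP9, LUM, KRT5, KRT14 and CDH1 under 0.5 CPM throughout. The part of these markers in the results was not tested.

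The replicates of αRes1 and αMut1 did not behave as 1 group each. In both lines the replicates numbered from 5 upwards stood apart from those numbered 1 to 4: 308 genes were on in one and off in the other set of αRes1, and 205 in αMut1, against 40 in αRes2 and 15 in αWT. The sets were closer across the 2 lines, with 75 such genes between αRes1 replicates 5 to 8 and αMut1 replicates 1 to 4, and 29 between αRes1 replicates 1 to 4 and αMut1 replicates 5 to 7. The libraries labelled αRes1 and αMut1 are given by line and number throughout, as 16 sets in all, and the cause of the split was not tested, including whether both sets of a line come from the clone on the label. Both lines hold both number sets, so differences by line and by number can each be computed. Which clone each set of these 15 libraries came from cannot be told from the labels. By sets, 2556 genes (4.08%) were on in at least 1 set and off in at least 1 other.

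**Figure D1:**
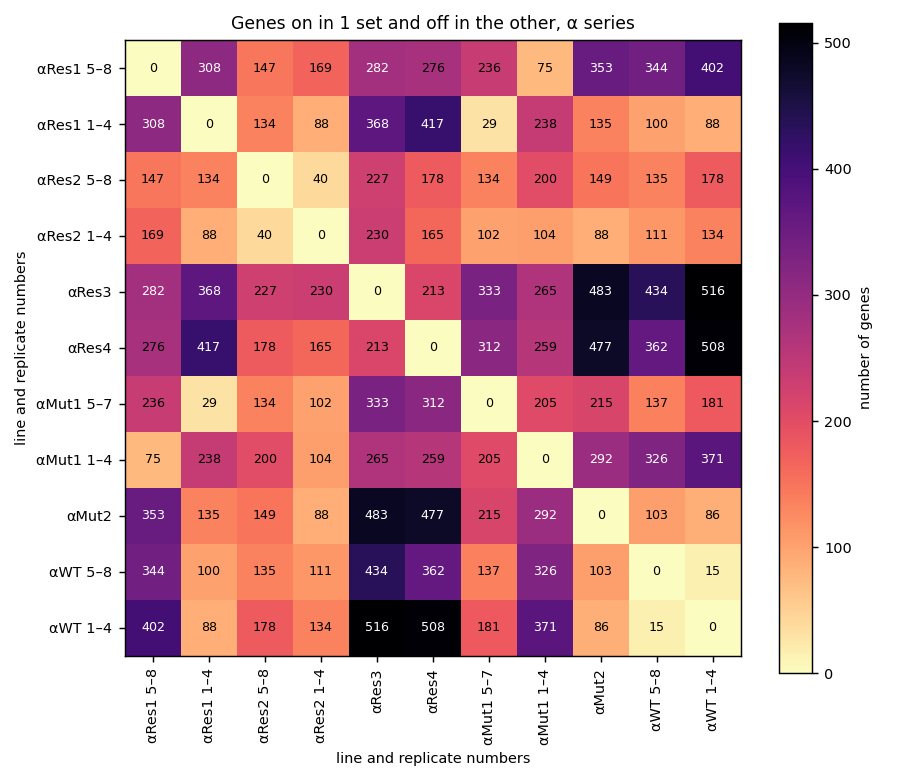
Number of genes that were on (all libraries at 1 CPM or more) in 1 set and off (all under 0.5 CPM) in the other, for each pair of the 11 sets of line and replicate numbers in the α series; the colour gives the same number as the text in each square. αRes1 replicates 5 to 8 differed from αMut1 replicates 1 to 4 at 75 genes and from αRes1 replicates 1 to 4 at 308.

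In a growing cell population a gene can be held silent or active through many divisions, by DNA methylation at CG dinucleotides of its promoter, by histone marks, or by the transcription factors present, and the descendants of 1 cell then share its state. The 10 genes belong to no common pathway. FGF13, S100A6, CALN1, IL1RAP and FSTL5 code for signalling, calcium-binding or receptor proteins, ETS1 and VGLL3 for a transcription factor and a transcription cofactor, USP44 for a deubiquitinase, and LRATD1 and ELSPBP1 for proteins named after a domain and a sperm-binding role.

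The genes also differed in the base composition around their annotated starts, which was not used to choose them. RefSeq promoters (GRCh38.p14, 250 bases before and 50 bases after a start) were found for 8 of the 10 genes, with 10 starts in all, and not for ETS1 and USP44. FGF13 and CALN1 each had a pair of starts of unlike composition, with 34 and 0 CG dinucleotides in FGF13 and 7 and 25 in CALN1. Elsewhere the number of CG dinucleotides was 39 in LRATD1, 36 in IL1RAP, 31 in S100A6, 22 in VGLL3, 11 in FSTL5 and 3 in ELSPBP1, against a median of 14 over 35116 promoters. The 4 sequences shown span this range, and LRATD1 and ELSPBP1, the most unlike of them, had their high and low values in the same sets of αRes1 and αMut1. They are LRATD1 (chr2:14632467-14632766, plus strand), S100A6 (chr1:153535942-153536241, minus strand), FSTL5 (chr4:162163951-162164250, minus strand) and ELSPBP1 (chr19:47994382-47994681, plus strand), written 5′ to 3′ on the strand of the gene with CG dinucleotides in capitals.
LRATD1: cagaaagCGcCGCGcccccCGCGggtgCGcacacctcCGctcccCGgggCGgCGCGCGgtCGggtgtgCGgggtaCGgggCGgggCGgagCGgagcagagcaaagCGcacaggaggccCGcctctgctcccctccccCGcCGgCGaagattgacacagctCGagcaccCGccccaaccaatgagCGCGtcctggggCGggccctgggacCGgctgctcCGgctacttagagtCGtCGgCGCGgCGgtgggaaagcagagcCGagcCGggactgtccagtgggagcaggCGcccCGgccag
S100A6: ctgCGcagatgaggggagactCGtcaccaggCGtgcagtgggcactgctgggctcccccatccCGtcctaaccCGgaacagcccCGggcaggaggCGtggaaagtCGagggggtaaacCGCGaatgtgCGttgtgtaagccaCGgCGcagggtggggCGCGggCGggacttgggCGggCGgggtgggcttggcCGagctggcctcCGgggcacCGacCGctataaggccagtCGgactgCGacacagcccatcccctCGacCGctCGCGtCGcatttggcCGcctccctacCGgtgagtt
FSTL5: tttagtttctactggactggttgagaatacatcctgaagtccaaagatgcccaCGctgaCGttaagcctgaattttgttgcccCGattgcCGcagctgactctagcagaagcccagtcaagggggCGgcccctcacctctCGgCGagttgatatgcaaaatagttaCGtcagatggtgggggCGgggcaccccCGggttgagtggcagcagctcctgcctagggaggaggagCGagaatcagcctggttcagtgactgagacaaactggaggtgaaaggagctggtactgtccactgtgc
ELSPBP1: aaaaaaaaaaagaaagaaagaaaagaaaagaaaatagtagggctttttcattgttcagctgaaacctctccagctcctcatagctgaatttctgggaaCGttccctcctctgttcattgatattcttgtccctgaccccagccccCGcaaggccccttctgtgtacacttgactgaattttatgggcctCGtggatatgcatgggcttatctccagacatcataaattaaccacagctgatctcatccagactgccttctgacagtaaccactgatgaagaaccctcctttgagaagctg
LRATD1 had 75.3% G and C and ELSPBP1 44%, against a median of 58.7% over all promoters. The 6 motifs named here were searched on both strands. The GC box (GGGCGG) occurred 5 times in LRATD1, 3 times in S100A6, 2 times each in IL1RAP and FSTL5 and once in VGLL3, and 45.0% of all promoters held it. The TATA box (TATAAA, in 11.5% of all promoters) occurred once, in the first FGF13 promoter, and the GATA motif (AGATAA, in 10.3%) once, in ELSPBP1. The AP-1 motif (TGACTCA, in 4.95%), the cAMP response element (TGACGTCA, in 1.85%) and the E-box (CACGTG, in 7.26%) had no match in these windows. The starts used by K562 cells and the methylation of these bases were not analysed here.

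**Figure D2:**
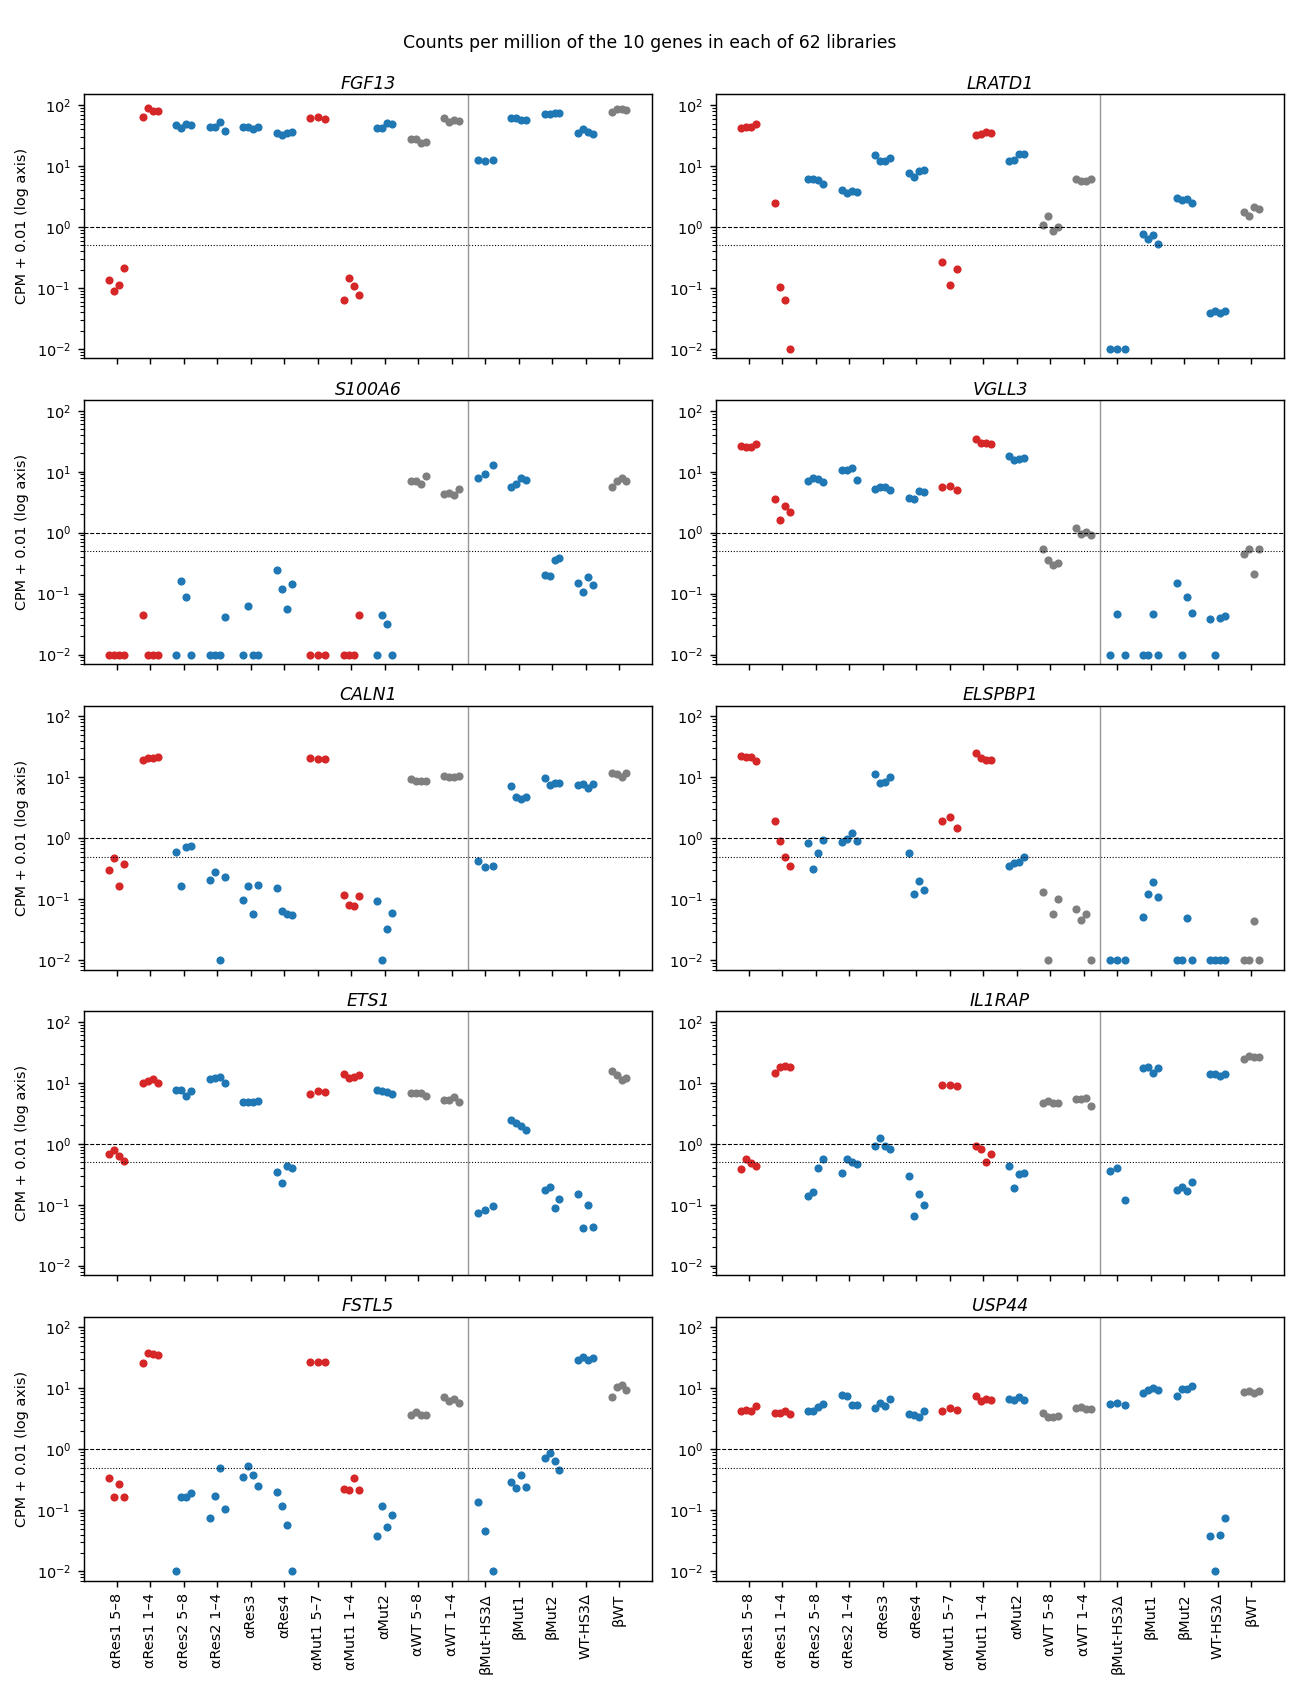
CPM plus 0.01, on a log axis, of the 10 genes in each of the 62 libraries, by set of line and replicate numbers; each point is 1 library, red marks αRes1 and αMut1, grey the unedited lines and blue the other edited lines. The dashed line is at 1 CPM and the dotted line at 0.5 CPM. FGF13 lay between 0.0537 and 0.207 CPM in αRes1 replicates 5 to 8 and αMut1 replicates 1 to 4 and at 12.0 CPM or more in every other library.

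The 10 genes gave 58 on, 23 between and 39 off states over 120 pairs of gene and line. By line 9 of the 10 genes were on in at least 1 line and off in another. The exception was FGF13, which was on in 10 lines and between in αRes1 and αMut1. By the 16 sets all 10 genes showed both states, with 89 on, 19 between and 52 off of 160. Without αRes1 and αMut1, FGF13 again was the 1 gene with no off line. With limits of 2 CPM for on and 0.2 CPM for off, FGF13 and IL1RAP lacked 1 of the states by line.

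**Figure D3:**
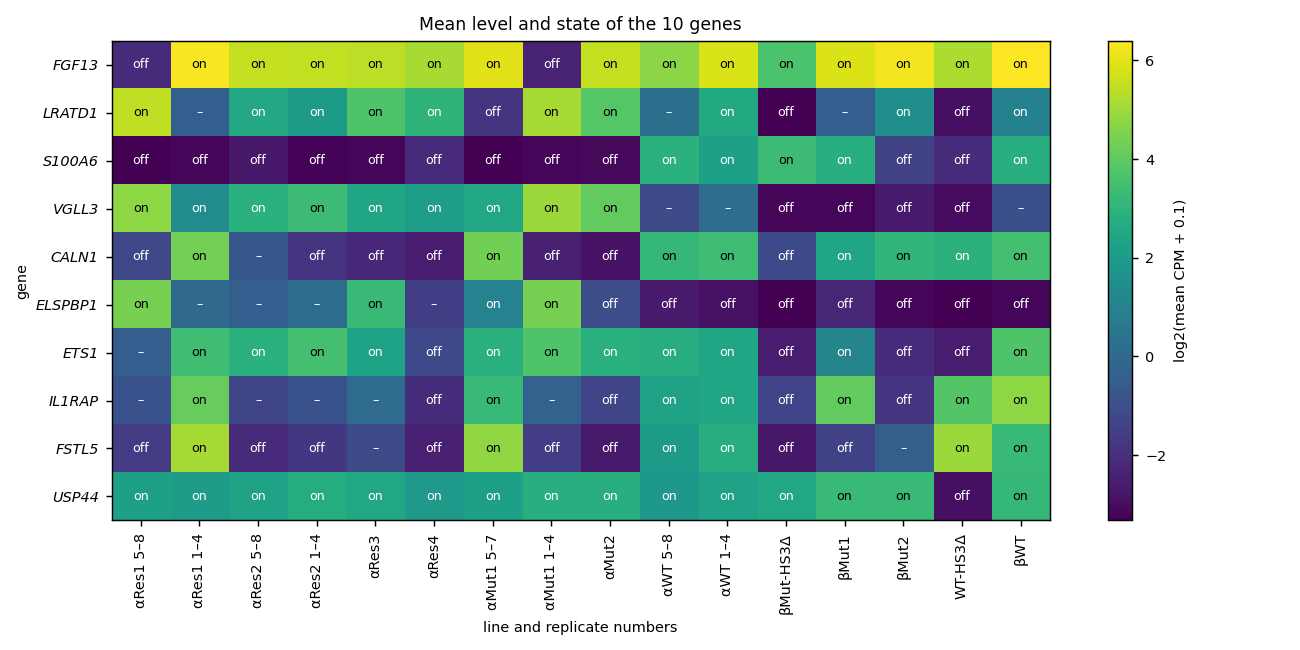
Mean level and state of the 10 genes in the 16 sets of line and replicate numbers; colour gives log2(mean CPM + 0.1) and the text in each square the state, with a dash for between. USP44 was off in WT-HS3Δ alone, and S100A6 was off in every set of the edited α lines.

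Among the signalling genes, IL1RAP (chromosome 3, 190514051 to 190659750, plus strand) codes for the accessory protein shared by the receptors for interleukin-1 and interleukin-33, known in blood from chronic myeloid leukemia cells. It was off in αRes4 (0.0549 to 0.283 CPM), αMut2 (0.176 to 0.417 CPM), βMut-HS3Δ (0.348, 0.393 and 0.111 CPM) and βMut2 (0.156 to 0.226 CPM). It was on in αWT (4.19 to 5.65 CPM), βMut1 (14.4 to 17.9 CPM), WT-HS3Δ (12.8 to 14.1 CPM) and βWT (24.9 to 27.7 CPM). The 2 βMut clones, which carry the same kind of edit, stood on opposite sides of the limits, and βMut2 was 145-fold lower than βWT while βMut1 was 1.58-fold lower. In αRes1 IL1RAP was at 0.373, 0.551, 0.467 and 0.414 CPM in replicates 5 to 8, against 14.5, 18.4, 19.1 and 18.4 CPM in replicates 1 to 4. In αMut1 it was at 9.22, 9.28 and 8.92 CPM in replicates 5 to 7, against 0.912, 0.826, 0.498 and 0.677 CPM in replicates 1 to 4. The number sets did not overlap in either line and lay in opposite orders. αRes3, at 0.813 to 1.25 CPM, and αRes2, at 0.128 to 0.551 CPM, had libraries on both sides of a limit and so counted as neither on nor off.

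FGF13 (chromosome X, 138614727 to 139222777, minus strand) codes for a fibroblast growth factor homologous factor, which is kept inside the cell and binds voltage-gated sodium channels. It was at 0.124, 0.0788, 0.104 and 0.207 CPM in αRes1 replicates 5 to 8, against 64.8, 88.6, 80.2 and 80.7 CPM in replicates 1 to 4. In αMut1 it was at 61.8, 63.2 and 59.9 CPM in replicates 5 to 7, against 0.0537, 0.138, 0.0997 and 0.0677 CPM in replicates 1 to 4. These were 588-fold lower and 662-fold higher values of the higher numbers. αWT also had 2 levels, at 27.4, 27.8, 24.3 and 24.7 CPM in replicates 5 to 8, against 61.2, 53.2, 58.0 and 54.9 CPM in replicates 1 to 4, but both were on. No other line was near 0, with 33.0 to 44.5 CPM in αRes3 and αRes4, 42 to 50.2 CPM in αMut2 and 37.6 to 53.4 CPM in αRes2. In the β series the lowest level was that of βMut-HS3Δ (12.0 to 12.5 CPM), which did not overlap with βMut1 (57.6 to 60.8 CPM). WT-HS3Δ was at 34.1 to 40.0 CPM, βMut2 at 72.2 to 75.8 CPM and βWT at 77.5 to 87.4 CPM.

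FSTL5 (chromosome 4, 161383897 to 162164004, minus strand) codes for a follistatin-like protein with a signal for secretion. It was at 0.332, 0.158, 0.259 and 0.155 CPM in αRes1 replicates 5 to 8, against 26.6, 37.7, 36.1 and 35.8 CPM in replicates 1 to 4. In αMut1 it was at 27.2, 26.9 and 27.5 CPM in replicates 5 to 7, against 0.215, 0.207, 0.332 and 0.203 CPM in replicates 1 to 4. FSTL5 was on and off in the same sets of these 2 lines as FGF13. It differed from FGF13 in the other edited α lines, where it was low, with 0 to 0.483 CPM in αRes2, 0.244 to 0.519 CPM in αRes3, 0 to 0.189 CPM in αRes4 and 0.0278 to 0.105 CPM in αMut2, against 3.70 to 7.22 CPM in αWT. Of the β lines, it was off in βMut-HS3Δ (0 to 0.127 CPM) and βMut1 (0.219 to 0.363 CPM) and low in βMut2 (0.451 to 0.873 CPM). WT-HS3Δ was the highest β line, at 28.7, 33.0, 29.0 and 31.0 CPM, against 7.16, 10.6, 11.2 and 9.42 CPM in βWT. The 2 HS3 deletions went with opposite states, and WT-HS3Δ was 3.13-fold above βWT.

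Of the calcium-binding proteins, S100A6 (chromosome 1, 153534599 to 153536244, minus strand), also called calcyclin, lies in the S100 gene cluster. In the 35 libraries of the edited α lines it had at most 0.236 CPM. αWT had 7.14, 6.92, 6.36 and 8.38 CPM in replicates 5 to 8 and 4.36, 4.42, 4.21 and 5.14 CPM in replicates 1 to 4. Over all libraries of a line this was 1 count in αMut1 and 2 counts in αMut2, against 1637 in αWT. S100A6 was the 1 gene of the 10 that was off in both sets of αRes1 and of αMut1, so the split of these lines did not touch it. Among the β lines S100A6 had opposite states in the 2 clones with the same HS2 edit and in the 2 lines with HS3 deleted. It was on in βMut-HS3Δ (8.02, 9.22 and 12.9 CPM) and βMut1 (5.62, 6.30, 7.74 and 7.17 CPM). It was off in βMut2 (0.193, 0.187, 0.350 and 0.376 CPM) and WT-HS3Δ (0.141, 0.0943, 0.175 and 0.129 CPM), against 5.54, 7.08, 7.86 and 6.93 CPM in βWT. This was 26.0-fold lower in βMut2 and 50.8-fold lower in WT-HS3Δ, while βMut1 and βWT overlapped.

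CALN1 (chromosome 7, 71779491 to 72447151, minus strand) codes for calneuron 1, a calcium-binding protein known from brain. It was at 0.290, 0.472, 0.155 and 0.362 CPM in αRes1 replicates 5 to 8, against 19.3, 21.1, 20.7 and 21.2 CPM in replicates 1 to 4. In αMut1 it was at 20.6, 19.8 and 20.2 CPM in replicates 5 to 7, against 0.107, 0.0689, 0.0665 and 0.102 CPM in replicates 1 to 4. The low sets were again those of FGF13 and FSTL5. CALN1 was off in αRes3 and αRes4 (0.0440 to 0.163 CPM), at most 0.735 CPM in αRes2, and off in αMut2 (0 to 0.0835 CPM), and αMut2 was 242-fold below αWT (8.54 to 10.6 CPM). βMut-HS3Δ was off, at 0.412, 0.322 and 0.334 CPM, against 7.11, 4.66, 4.32 and 4.65 CPM in βMut1. βMut2 (7.54 to 9.61 CPM), WT-HS3Δ (6.69 to 7.76 CPM) and βWT (10.1 to 11.9 CPM) were all on.

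Of the regulators of transcription, ETS1 (chromosome 11, 128458761 to 128587558, minus strand) codes for a transcription factor of lymphoid and other blood cells that gave the ETS family its name. It was off in αRes4 (0.330, 0.220, 0.421 and 0.396 CPM) and between the limits in αRes1 replicates 5 to 8 (0.663, 0.787, 0.622 and 0.517 CPM). All other α sets were on, with 10.0, 10.8, 11.6 and 10.1 CPM in αRes1 replicates 1 to 4, 4.78 to 4.96 CPM in αRes3, 6.58, 7.32 and 7.20 CPM in αMut1 replicates 5 to 7 and 13.9, 11.8, 12.7 and 13.5 CPM in αMut1 replicates 1 to 4. Both sets of αMut1 thus were on, and the higher of them was the set in which FGF13 was off, whereas in αRes1 ETS1 was low where FGF13 was off. Its other α levels were 6.50 to 7.49 CPM in αMut2 and 4.76 to 6.83 CPM in αWT, and those of αRes2 were 6.15 to 7.70 CPM in replicates 5 to 8 and 9.75 to 12.6 CPM in replicates 1 to 4. In the β series ETS1 was off in βMut-HS3Δ (0.0634 to 0.0835 CPM), βMut2 (0.0778 to 0.187 CPM) and WT-HS3Δ (0.0314 to 0.141 CPM). βMut1 kept 2.41, 2.15, 1.93 and 1.70 CPM, against 15.5, 13.6, 11.2 and 12.0 CPM in βWT, so every edited β library was below every βWT library. Against βWT this was 6.41-fold lower in βMut1, 92.3-fold lower in βMut2 and 172-fold lower in WT-HS3Δ.

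VGLL3 (chromosome 3, 86876388 to 86991149, minus strand) codes for a vestigial-like cofactor of the TEAD transcription factors. It had 26.9, 25.2, 25.1 and 28.7 CPM in αRes1 replicates 5 to 8 and 3.53, 1.59, 2.68 and 2.2 CPM in αRes1 replicates 1 to 4. αMut1 had 5.52, 5.74 and 4.97 CPM in replicates 5 to 7 and 34.7, 29.9, 29.1 and 28.5 CPM in replicates 1 to 4. The split in these lines ran between a higher and a lower level, with no set off, and the high sets were the ones in which FGF13 was off. αRes2 had 6.71 to 11.6 CPM, αRes3 4.96 to 5.60 CPM, αRes4 3.62 to 4.73 CPM and αMut2 15.5 to 18.3 CPM. All edited α libraries were above those of αWT, which had 0.520, 0.341, 0.285 and 0.303 CPM in replicates 5 to 8 and 1.16, 0.942, 1.03 and 0.889 CPM in replicates 1 to 4. The edited β libraries went the other way, at 0 to 0.138 CPM, against 0.432, 0.524, 0.199 and 0.527 CPM in βWT, with no overlap.

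USP44 (chromosome 12, 95516560 to 95551476, minus strand) codes for a deubiquitinase of the mitotic checkpoint and of histone H2B. Its switch was the simplest of the 10. In WT-HS3Δ it was at 0.0283, 0, 0.0292 and 0.0647 CPM, against 8.65, 8.92, 8.52 and 8.89 CPM in βWT, which was 289-fold lower. Every other library had between 3.32 and 11.1 CPM, including those of βMut-HS3Δ, which carries a deletion of the same enhancer.

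LRATD1 (chromosome 2, 14632700 to 14650814, plus strand) codes for a protein with the domain of lecithin retinol acyltransferase. In αRes1 it was at 42.7, 43.1, 44.2 and 48.7 CPM in replicates 5 to 8, against 2.46, 0.0935, 0.0526 and 0 CPM in replicates 1 to 4. In αMut1 it was at 0.255, 0.101 and 0.196 CPM in replicates 5 to 7, against 32.8, 33.4, 36.1 and 34.4 CPM in replicates 1 to 4. These orders were the reverse of those of FGF13, CALN1, IL1RAP and FSTL5, and αRes1 replicate 1 lay well above the other 3 low libraries of its set. αWT again had 2 levels, with 1.08, 1.49, 0.854 and 1.00 CPM in replicates 5 to 8 and 6.21, 5.80, 5.60 and 6.22 CPM in replicates 1 to 4. αRes2 had 6.10, 6.09, 5.91 and 5.05 CPM in replicates 5 to 8 and 4.00, 3.58, 3.87 and 3.74 CPM in replicates 1 to 4, and αRes3 (11.9 to 15.1 CPM), αRes4 (6.64 to 8.63 CPM) and αMut2 (12.3 to 16.1 CPM) were on. Both HS3 deletions were off. βMut-HS3Δ had 0 counts in its 3 libraries, at least 20.8-fold lower than βMut1 (0.763, 0.619, 0.727 and 0.524 CPM) with a floor of 3 counts over the group, and WT-HS3Δ had 4 counts, against 207 in βWT (1.77, 1.51, 2.12 and 1.96 CPM). βMut2 was the highest β line, at 3.04, 2.74, 2.92 and 2.44 CPM.

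ELSPBP1 (chromosome 19, 47994632 to 48025154, plus strand) codes for an epididymal protein that binds sperm. It was off in both unedited lines and in the β series, at 0 to 0.120 CPM in αWT and 0 to 0.182 CPM in the β lines, with no count at all in βMut-HS3Δ and WT-HS3Δ. In αRes1 it was at 22.5, 21.8, 21.8 and 18.6 CPM in replicates 5 to 8, against 1.94, 0.888, 0.474 and 0.345 CPM in replicates 1 to 4. In αMut1 it was at 1.88, 2.26 and 1.45 CPM in replicates 5 to 7, against 25.1, 20.8, 19.2 and 19.3 CPM in replicates 1 to 4. The high sets were those of LRATD1 and VGLL3. αRes3 was also on, at 11.1, 8.10, 8.47 and 10.2 CPM, whereas αRes2 (0.304 to 1.21 CPM), αRes4 (0.110 to 0.566 CPM) and αMut2 (0.334 to 0.473 CPM) were low, the libraries of αRes2 and αMut2 above and those of αRes4 overlapping with αWT.

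The split of αRes1 and αMut1 was then set out as the difference between number sets, from edgeR fits by set. In αRes1 the log2 difference of replicates 5 to 8 from 1 to 4 was -9.17 ± 0.165 (SE) for FGF13, -7.14 ± 0.196 for FSTL5, -6.07 ± 0.170 for CALN1, -5.32 ± 0.181 for IL1RAP and -4.07 ± 0.125 for ETS1, and 6.03 ± 0.316 for LRATD1, 4.52 ± 0.232 for ELSPBP1 and 3.35 ± 0.131 for VGLL3. In αMut1 that of replicates 5 to 7 from 1 to 4 was 9.33 ± 0.167 for FGF13, 6.82 ± 0.188 for FSTL5, 7.87 ± 0.197 for CALN1, 3.71 ± 0.167 for IL1RAP and -0.85 ± 0.088 for ETS1, and -7.46 ± 0.433 for LRATD1, -3.45 ± 0.229 for ELSPBP1 and -2.46 ± 0.130 for VGLL3. The 7 genes that were far apart in both lines therefore had opposite signs in them, and ETS1 did not. Across lines, no member was on in αRes1 replicates 5 to 8 and off in αMut1 replicates 1 to 4 or the reverse, and 9 of 10 had the same state. Between αRes1 replicates 1 to 4 and αMut1 replicates 5 to 7 it was also 0 of 10, with 8 in the same state. Over all 62696 genes, 75 and 29 were in opposite states in these 2 pairs of sets, so a count of 0 of 10 says little about the members. The share of all genes in the same state is not given here. ETS1 differed most between αRes1 replicates 5 to 8 and αMut1 replicates 1 to 4, at -4.31 ± 0.124.

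**Figure D4:**
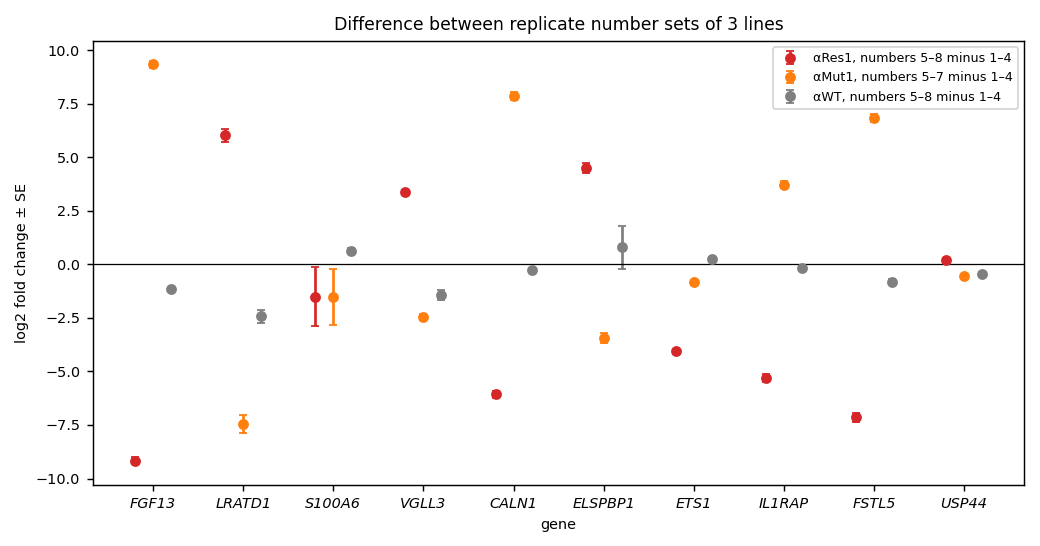
Difference of each of the 10 genes between replicate number sets within αRes1 (red, 5 to 8 minus 1 to 4), αMut1 (orange, 5 to 7 minus 1 to 4) and αWT (grey, 5 to 8 minus 1 to 4), as log2 fold change ± SE from edgeR. FGF13 lay at -9.17 in αRes1 and 9.33 in αMut1, and S100A6, with at most 1 count in each set of these 2 lines, had wide errors.

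Because a label for 1 line covers both sets, a comparison of lines averaged over them. In αRes1 against αMut1, 0 of 10 genes passed the test at a log2 change over 0.5 and an adjusted p under 0.05 (edgeR quasi-likelihood, Benjamini-Hochberg), where 2.96% of all genes did. Against αMut1, 4 genes passed in αRes2 (8.96% of all genes), 3 in αRes3 (20.6%) and 8 in αRes4 (32.5%). Against αWT, 4 of 10 passed in αMut1 (22.8% of all genes) and 6 of 10 in αMut2 (16.1%). In the β series VGLL3 and ELSPBP1 had too few counts for the fit, and of the other 8 genes 5 passed in βMut1 (20.3% of all genes), 5 in βMut2 (28.7%) and 8 in WT-HS3Δ (50.2%), each against βWT, and 8 in βMut-HS3Δ against βMut1 (53.0%). Between the unedited lines 5 of 9 tested genes passed in αWT against βWT (48.1%). Between number sets 8 passed in αRes1 (38.2%), 9 in αMut1 (29.1%), 2 in αRes2 (15.2%) and 5 in αWT (25.6%). The genes were chosen from these contrasts, so the counts say nothing beyond that choice. The αRes3 and αRes4 libraries all had counts of pseudoautosomal genes that the αMut1 libraries lacked, a difference that cannot be told apart from the line in these contrasts. The comparisons against αMut1 share its libraries, as do those against αWT and those against βWT.

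Clones with the same edit were set side by side, without a test between them. S100A6 was at a log2 difference of -9.20 ± 0.439 (SE) in αMut1 and -8.32 ± 0.500 in αMut2, each against αWT. VGLL3 was at 4.80 ± 0.547 in αMut1 and 4.59 ± 0.577 in αMut2. For these 2 genes both clones with a mutated HS-40 G4 motif lay on the same side of αWT. CALN1 was at -0.14 ± 0.772 in αMut1, whose error is that of a line with both states, and at -7.75 ± 1.67 in αMut2. In the β clones IL1RAP was at -0.62 ± 0.0978 in βMut1 and -7.12 ± 0.168 in βMut2, and S100A6 at 0.01 ± 0.150 in βMut1 and -4.64 ± 0.233 in βMut2, each against βWT. ETS1 (-2.64 ± 0.141 and -6.47 ± 0.21) and FSTL5 (-5.09 ± 0.229 and -3.79 ± 0.193) were far lower in both clones. LRATD1 had opposite signs in them (-1.45 ± 0.154 and 0.63 ± 0.125).

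The genes around the 10 were not used to choose them and were tested in the same fits. A gene was called near where its annotated span lay within 500 kb. S100A6 had 31 tested near genes, ELSPBP1 22, USP44 9, CALN1 4, and FGF13, VGLL3 and IL1RAP 2 each, whereas LRATD1, ETS1 and FSTL5 had no tested gene in that distance. In the 25 pairs of a gene and a line contrast in which the gene itself differed by more than 2 on the log2 scale, 61 of 258 near-gene values (23.6%) passed the test, 35 in the direction of the gene itself and 26 opposite to it. Such a difference was not always a switch of state. S100A6 was off in both αRes4 and αMut1, with 11 counts against 1. That pair gave 28 of the near-gene values, of which 9 passed, 8 in its direction. ELSPBP1 was off in both αMut2 and αWT, and of its 20 near-gene values there 0 passed. FGF13 was on in both βMut-HS3Δ and βMut1, and VGLL3 in both αRes4 and αMut1. The share was 14.2% (27 of 190) in the α series, where 8.96% to 32.5% of all genes passed in these contrasts, and 50.0% (34 of 68) in the β series, where 28.7% to 53.0% did. Without the contrasts of αMut1 and αRes1 it was 30.9% (38 of 123), with 19 in each direction. A change over 2 on the log2 scale was reached by 4 near-gene values, all around S100A6, while the gene itself exceeded it in all 25 pairs by definition.

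**Figure D5:**
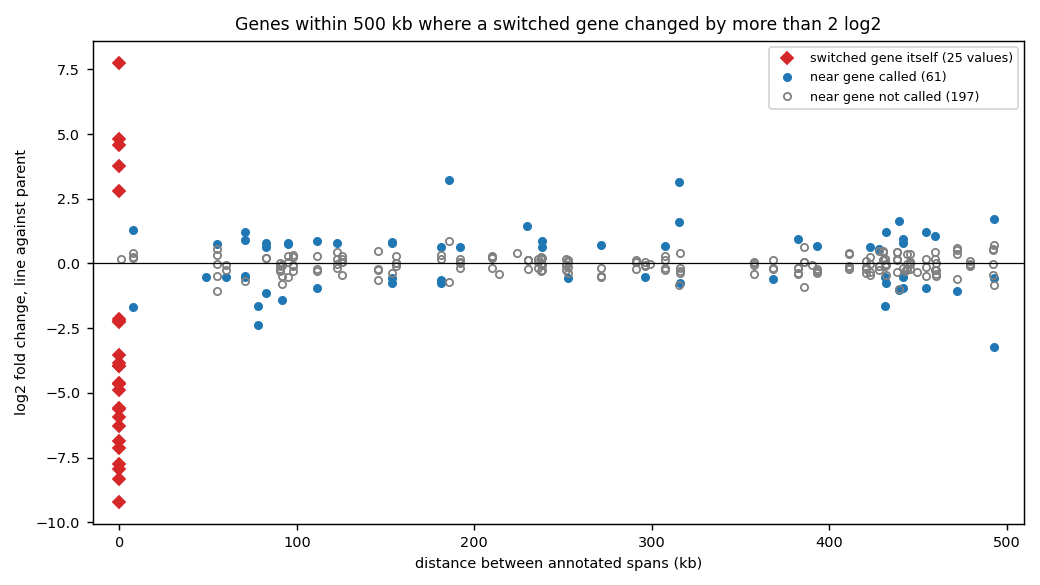
Log2 fold change of genes within 500 kb of a switched gene against the distance between annotated spans in kb, for line contrasts in which the switched gene changed by more than 2 on the log2 scale. Red diamonds are those genes themselves at distance 0, filled blue points the 61 near-gene values that passed the test and open points the 197 that did not.

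Around S100A6, the neighbour S100A4, a calcium-binding S100 protein linked to cell motility, lies 7.37 kb away. It was at 5.95 to 8.47 CPM in αMut1 and at 5.11 to 7.38 CPM in αWT, and its log2 difference was 0.24 ± 0.140 (95% interval -0.04 to 0.52, adjusted p = 0.171), where S100A6 was at -9.20. In βMut2 S100A4 rose, by 1.30 ± 0.196 (adjusted p = 2.74e-05), with 9.27 to 16.3 CPM against 4.17 to 6.73 CPM in βWT, while S100A6 was at -4.64. In WT-HS3Δ S100A4 fell by 1.67 ± 0.228 on the log2 scale (adjusted p = 2.5e-06), to 1.47 to 2.19 CPM. S100A4 moved against S100A6 in 1 clone and with it in another. In αRes3, where S100A6 was off as in αMut1, S100A4 was lower than in αMut1 at a log2 difference of -2.36 ± 0.204 (adjusted p = 3.38e-12).

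Other S100 genes of the cluster fell in WT-HS3Δ as well. There 15 of 26 tested genes near S100A6 passed (57.7%, 12 of them lower), against 50.2% of all genes. In βMut-HS3Δ against βMut1 12 of 26 passed (46.2%), against 53.0% of all genes. The log2 difference from βWT was -2.39 ± 0.345 for S100A14 (adjusted p = 5.08e-06), -1.15 ± 0.201 for S100A13 (adjusted p = 4.67e-05) and -0.53 ± 0.135 for S100A16 (adjusted p = 0.00171). In βMut-HS3Δ against βMut1, S100A14 (-2.65 ± 0.464, adjusted p = 4.8e-05), S100A13 (-1.34 ± 0.216, adjusted p = 2.02e-05) and S100A16 (-0.68 ± 0.148, adjusted p = 0.000448) fell too, although S100A6 was on there. S100A14 was low in every line, with a line mean of at most 0.927 CPM. It had 22 counts in WT-HS3Δ against 103 in βWT, and 9 in βMut-HS3Δ against 67 in βMut1. In αMut1 S100A16 rose against αWT, by 1.23 ± 0.245 (adjusted p = 8.18e-05), opposite to S100A6. Between number sets, where S100A6 was off on both sides, S100A16 rose by 1.71 ± 0.199 (adjusted p = 6.33e-10) and S100A13 by 1.21 ± 0.120 (adjusted p = 9.35e-12) in αRes1 replicates 5 to 8.

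USP44 has METAP2, which codes for a methionine aminopeptidase, as its nearest gene, 721 bases away. METAP2 was at a log2 difference of 0.18 ± 0.062 (95% interval 0.06 to 0.30) in WT-HS3Δ against βWT, where USP44 was at -7.95 ± 0.247. The interval of the adjacent gene lay above 0 where USP44 was off. Of the 9 near genes tested there, 3 passed (33.3%, against 50.2% of all genes). SNRPF (307.0 kb), which codes for a spliceosome protein, rose by 0.69 ± 0.106 (adjusted p = 1.14e-05), with 97.3 to 122.3 CPM in WT-HS3Δ, against 59.9 to 78.2 CPM in βWT. The pseudogene RPL29P26 (48.7 kb) fell by 0.53 ± 0.131 on the log2 scale (adjusted p = 0.00137) and the pseudogene CBX3P5 (230.0 kb) rose by 1.45 ± 0.301 (adjusted p = 0.000291). The reads of the pseudogenes may come from other copies of the same sequence, and the counting of such reads is not given in the sources used here.

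Around FGF13, MCF2, a guanine nucleotide exchange factor gene 359.0 kb away, moved in line contrasts in which FGF13 differed by less than 2 on the log2 scale. In the contrasts with αMut1 the FGF13 value averaged replicates with FGF13 on and replicates with it off. FGF13 was on in every library of αMut2 and αWT. MCF2 rose by 3.78 ± 0.332 in αMut1 (adjusted p = 4.94e-12) and by 4.72 ± 0.346 in αMut2 (adjusted p = 1.64e-13), each against αWT, and by 3.71 ± 0.289 in αRes4 against αMut1 (adjusted p = 2.7e-13), where FGF13 was at -0.65, 0.15 and 0.39. MCF2 had 18.0 to 20.5 CPM in αRes4, 2.67 to 3.2 CPM in αMut2 and 0.0200 to 0.179 CPM in αWT. Where FGF13 did switch, in the number sets, MCF2 rose by 1.71 ± 0.189 in αRes1 replicates 5 to 8 (adjusted p = 1.8e-10), opposite to FGF13, and was at -0.42 ± 0.186 in αMut1 replicates 5 to 7 (adjusted p = 0.0556).

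CALN1 has TYW1B, a gene named after a tRNA-modifying enzyme, 112.0 kb away. TYW1B fell by 0.95 ± 0.129 on the log2 scale in αRes4 against αMut1 (adjusted p = 1.41e-07), with CALN1 at -6.84, and rose by 0.85 ± 0.137 in βMut-HS3Δ against βMut1 (adjusted p = 1.85e-05), with CALN1 at -3.85. SBDSP1 (382.0 kb) and POM121 (432.0 kb), which codes for a nuclear pore protein, fell in αRes1 replicates 5 to 8, by 1.13 ± 0.0744 (adjusted p = 4.4e-17) and 0.59 ± 0.0594 (adjusted p = 1.28e-11) on the log2 scale. They rose in αMut1 replicates 5 to 7, by 0.91 ± 0.0758 (adjusted p = 1.63e-13) and 0.86 ± 0.0633 (adjusted p = 3.55e-15), in each case with CALN1. Both rose in βMut-HS3Δ against βMut1, by 0.96 ± 0.0662 (adjusted p = 2.4e-10) and 1.23 ± 0.187 (adjusted p = 9.7e-06), opposite to CALN1.

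Around VGLL3, the pseudogene PPATP1 (60.0 kb) fell by 0.53 ± 0.0966 on the log2 scale in αMut1 against αWT (adjusted p = 2.54e-05), while VGLL3 was at 4.80, and CHMP2B (236.0 kb), a gene of the ESCRT machinery, was at -0.16 ± 0.101 (adjusted p = 0.203). Around ELSPBP1, LIG1 (90.3 kb), which codes for a DNA ligase, was at 0.37 ± 0.0723 in αRes1 replicates 5 to 8, under the limit of 0.5, and ZSWIM9 (146.0 kb) rose by 1.71 ± 0.169 (adjusted p = 8.88e-12). In αMut1 replicates 5 to 7, where ELSPBP1 was low, ZSWIM9 was at 0.03 ± 0.169 (adjusted p = 0.898). In the number sets of both lines together, 24 of 58 near-gene values (41.4%) passed the test, where 29.1% and 38.2% of all genes did. Of these 24, 14 went with the gene they lie near and 10 against it.

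IL1RAP has TMEM207, a small membrane protein gene, 64.2 kb away. It was tested between the unedited lines, where it fell by 1.91 ± 0.272 on the log2 scale in αWT (adjusted p = 2.53e-05) while IL1RAP was at -2.43 ± 0.0893. Its counts were too low in the α series and in the contrasts of the β series for a test. As levels, TMEM207 was at 0 CPM in αRes1 replicates 5 to 8, αRes2 replicates 5 to 8, αRes4 and βMut-HS3Δ, in all of which IL1RAP was at most 0.551 CPM. It was highest in αRes1 replicates 1 to 4 (0.514 to 1.40 CPM), αMut1 replicates 5 to 7 (0.548 to 0.989 CPM) and βWT (0.603 to 0.928 CPM), where IL1RAP was on. It was low in other lines in which IL1RAP was on, with 0 to 0.241 CPM in βMut1, 0.170 to 0.408 CPM in WT-HS3Δ and 0.0786 to 0.273 CPM in αWT. Its remaining levels were 0.0813 to 0.188 CPM in αRes3 and at most 0.0543 CPM in αRes2 replicates 1 to 4, αMut1 replicates 1 to 4, αMut2 and βMut2. These levels were looked at after the likeness to IL1RAP was seen in the data.

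Relatives of the 10 genes were taken from a list of 90 genes of their families (S100 proteins, ETS factors, interleukin-1 receptors, follistatin-like proteins, acyltransferases, vestigial-like cofactors, fibroblast growth factor homologous factors and others), of which 54 were tested. In αMut1 13 relatives were higher and 1 lower than in αWT (27.5% of those tested, against 22.8% of all genes), and in αMut2 14 were higher and 2 lower (31.4%, against 16.1%). Against αMut1, the counts were 0 higher and 2 lower in αRes1 (3.92%, against 2.96%), 0 and 9 in αRes2 (17.6%, against 8.96%), 3 and 14 in αRes3 (33.3%, against 20.6%) and 4 and 18 in αRes4 (43.1%, against 32.5%). The counts were 7 and 8 in βMut1 (28.8%, against 20.3%), 7 and 11 in βMut2 (34.6%, against 28.7%) and 9 and 20 in WT-HS3Δ (55.8%, against 50.2%), each against βWT, and 10 and 19 in βMut-HS3Δ against βMut1 (55.8%, against 53.0%). The median log2 change of the relatives was 0.0798 in αMut1 and 0.177 in αMut2 against αWT, against -0.031 and -0.0105 over all genes.

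Of the 90 relatives, 54 of which reached a line mean of 1 CPM, 10 were on in at least 1 line and off in another, where 3.43% of all genes and 12.6% of those on in at least 1 line were. They were S100A10, ELF3, EHF, SPIB, IL1RL1, IL18R1, FSTL4, LRAT, PLAAT1 and PLAAT4. These relatives were picked by their switching in these same libraries. Their differences are therefore a description, and the adjusted p-values given with them add no support. LRAT, which esterifies retinol and shares its domain with LRATD1, split with LRATD1 in both lines. It had 21.9 to 24.3 CPM in αRes1 replicates 5 to 8, against 0 to 0.416 CPM in replicates 1 to 4, a log2 difference of 7.38 ± 0.288 (adjusted p = 1e-24). In αMut1 it had 0.287 to 0.469 CPM in replicates 5 to 7, against 7.16 to 8.64 CPM in replicates 1 to 4, a log2 difference of -4.26 ± 0.286 (adjusted p = 2.01e-16). The orders were those of LRATD1, and so was the on state in αRes3 (6.49 to 7.73 CPM). In αRes2, αRes4, αMut2, βMut2 and βWT LRATD1 was on but LRAT had at most 0.328 CPM, and LRAT was off in αWT and in every β line.

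PLAAT1, a phospholipase and acyltransferase of the same superfamily, split the other way, as FGF13 did. Its log2 difference was -6.72 in αRes1 and 4.54 in αMut1, with 0 to 0.156 CPM in αRes1 replicates 5 to 8, against 4.23 to 5.14 CPM in replicates 1 to 4, and 2.90 to 3.17 CPM in αMut1 replicates 5 to 7, against 0.0344 to 0.203 CPM in replicates 1 to 4. Among the receptors that pair with the IL1RAP protein or resemble its partners, IL1RL1, the interleukin-33 receptor, differed by 2.25 in αRes1 and -1.77 in αMut1 between number sets, and IL18R1 by 1.89 and -1.42. These signs were opposite to those of IL1RAP in both lines. S100A10, which binds annexin A2, differed by 1.72 and -1.52, and rose by 3.59 ± 0.335 in αMut1 against αWT (adjusted p = 2.28e-11), opposite to S100A6.

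The genes whose levels were most like those of the 10 over the 12 line means, by Pearson's r of log2(CPM + 0.1) among 17842 genes searched, are given as a description of 12 points, of which the α lines share a parent. They were WIPF1 (r = 0.978), RHOB (0.975) and LINC02458 (0.974) for LRATD1, PCDHB5 (0.980), PRUNE2 (0.978) and NXF3 (0.977) for ELSPBP1, and LIFR (0.977), GLCCI1 (0.973) and NFILZ (0.970) for VGLL3. For USP44 they were CPNE8 (0.961), PYCARD (0.952) and XKR8 (0.940), for S100A6 CTAG2 (0.932), PEG10 (0.926) and ENSG00000226141 (0.904), and for ETS1 MAP1B (0.931), HCLS1 (0.925) and PSIP1P1 (0.925). For the other members they were, for FSTL5 (ZNF804A 0.931, C7orf33 0.927 and P2RX5 0.890), for FGF13 (TXNRD3 0.928, ZNF442 0.914 and JDP2 0.905), for IL1RAP (PVR 0.899, SND1 0.889 and HYOU1 0.837) and for CALN1 (DNAJC15 0.837, EFCAB10 0.833 and UNC93B1 0.819). The line means average over the sets of αRes1 and αMut1. Over the 16 sets, among 18088 genes searched, the 3 most alike held none of these for FGF13, CALN1 and IL1RAP. Highest there were E2F6P4 (0.936) and TMEM185A (0.930) for FGF13, USP26 (0.895) and FSTL5 (0.851) for CALN1, and BRAFP1 (0.855) and ITGA4 (0.827) for IL1RAP. Each other member had a gene in common between the searches. Among the 10 genes themselves, over the 16 sets, r was 0.851 for CALN1 and FSTL5, 0.823 for IL1RAP and FSTL5, 0.788 for CALN1 and IL1RAP, 0.815 for VGLL3 and ELSPBP1, 0.748 for LRATD1 and VGLL3 and 0.628 for LRATD1 and ELSPBP1. CALN1, IL1RAP and FSTL5 thus were alike, and LRATD1, VGLL3 and ELSPBP1 less closely so. Negative values of like size were found with other members, at -0.73 for VGLL3 and S100A6, -0.678 for FGF13 and ELSPBP1 and -0.675 for S100A6 and ELSPBP1. Both likenesses rest on the split of αRes1 and αMut1, for which genes were chosen, as well as on the other lines.

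The globin genes under the edited enhancers gave the scale of the same libraries. HBA1, which codes for α-globin and whose reads may in part match its near-identical copy HBA2, had 34.0 to 50.7 CPM in αMut2, against 133.5 to 229.4 CPM in αWT. In αMut1 HBA1 had 144.9 to 173.5 CPM in replicates 5 to 7 and 107.5 to 132.0 CPM in replicates 1 to 4. HBE1, the embryonic β-like globin gene, had 3.55 to 5.26 CPM in βMut-HS3Δ, against 61.95 to 80.6 CPM in βMut1, and 10.6 to 13.1 CPM in WT-HS3Δ, against 50.2 to 53.7 CPM in βWT. S100A6 was on in βMut-HS3Δ and off in WT-HS3Δ, whereas HBE1 was lower in both than in their parent lines.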

How the data were processed

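Counts of paired poly(A) RNA-seq reads per gene were deposited by the authors for each of 62 libraries, unnormalized. Per the study's methods and the submitters' processing notes, reads were trimmed with cutadapt, aligned to hg38 with BWA, handled with SAMtools 1.15.1, cleared of duplicates and counted with featureCounts on GENCODE 42; whether the counting used strand, and how reads with several matches were treated, is not given in the sources used here, so genes that overlap or have near-identical copies are uncertain. Removing duplicates lowers the counts of highly expressed genes most.

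Names and hg38 positions came from GENCODE 44. CPM values used edgeR 4.0.16 TMM library sizes (R 4.3.3). Genes with a mean of 10 counts per library were tested with edgeR's quasi-likelihood test (glmQLFit and glmQLFTest), with Benjamini-Hochberg adjustment over all genes, separately for α libraries (18247 genes) and β libraries (17535 genes), by line and by set of replicate numbers. A call needed an adjusted p under 0.05 and a log2 fold change over 0.5. The filter was passed by all 10 genes among the α libraries and by 8 among the β libraries. The fits were tested on simulated counts. The members and gene lists were chosen with earlier results of these data known. Named besides the members are near genes called where a member changed by over 2 log2 (the nearest first, at most 4 per member), the 3 genes most like each member over the lines, relatives that switch, markers, HBA1 and HBE1. Genes most like FGF13, CALN1 and IL1RAP over the 16 sets are named as well. LIG1, CHMP2B, TMEM207 as levels, S100A4, METAP2 and MCF2 where they were not called, and the near genes of the number sets were added after their values were seen. Alternatives were DESeq2 1.42.0, no TMM factors, no filter, other windows and limits, replicates 1 to 4 alone, each replicate left out, and a replicate block.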

Additional observations from a re-analysis of the deposited data

Results flagged for a closer look

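Of 68 groups of a gene and a line of 4 to 8 libraries with a mean of at least 1 CPM, 2 held a library far from the others by Dixon's ratio of gap to range, where chance gives about 1 in 20. FGF13 was at 40.4 CPM in αRes3 replicate 3, with the nearest library at 43.9 CPM (ratio 0.858). CALN1 was at 7.11 CPM in βMut1 replicate 1, with the nearest at 4.66 CPM (ratio 0.878). Neither library left its state. Number sets were not examined this way. Within αRes1 replicates 1 to 4, LRATD1 was at 2.46 CPM in replicate 1, against 0.0935, 0.0526 and 0 CPM in the other 3.

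In 8 of the 10 genes the replicates numbered from 5 upwards lay to one side of replicates 1 to 4 in αRes1 and to the other side in αMut1, with no overlap of the sets. For USP44 the differences were small. The log2 differences in αRes1 and αMut1 were -9.17 and 9.33 for FGF13, 6.03 and -7.46 for LRATD1, 3.35 and -2.46 for VGLL3, -6.07 and 7.87 for CALN1, 4.52 and -3.45 for ELSPBP1, -5.32 and 3.71 for IL1RAP, -7.14 and 6.82 for FSTL5, and 0.19 and -0.54 for USP44. The difference between the lines was not tested, since the genes were chosen for such splits. Between these sets 38.2% of all genes passed the test in αRes1 and 29.1% in αMut1. The share of all genes with opposite orders in the 2 lines is not given here, so the 8 of 10 has no background.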

How the results depend on the processing

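Of the comparisons recomputed under each alternative, 361 kept their direction and side of the threshold, 20 were stronger and 18 weaker, and none was reversed; the 179 values of single near genes all kept theirs. The number of genes on in 1 line and off in another was 649 with limits of 0.2 and 2 CPM and 3383 by the line mean, against 2151. Without the filter on low counts the share of near genes called was lower in each contrast, since more genes then enter the denominator. It was 0.515% in αRes1, 2.06% in αRes2, 8.76% in αRes3 and 13.4% in αRes4 against αMut1, 11.3% in αMut1 and 6.70% in αMut2 against αWT, 8.11% in βMut1, 13.5% in βMut2 and 25.7% in WT-HS3Δ against βWT, 25.0% in βMut-HS3Δ against βMut1 and 27% in αWT against βWT. The values with the filter were 1.52%, 4.55%, 13.6%, 25.8%, 18.2%, 10.6%, 12.5%, 26.6%, 53.1%, 48.4% and 50.7% in the same order. For relatives it was 20.0% in αMut2 and 21.7% in βMut2. With replicates 1 to 4 alone the near share was 25.8% in αRes1, 15.2% in αRes2, 28.8% in αRes3, 37.9% in αMut1 and 16.7% in αMut2. That setting keeps only 1 of the 2 number sets of αRes1 and of αMut1. The share of all genes called under it is not given here, so these shares cannot be read as particular to near genes. Within 100 kb it was 9.09% in αRes1 and in αRes2, 0.0% in αMut2 and 8.33% in βMut1, and within 1000 kb 15.9% in αMut2. DESeq2, and library totals without TMM, each gave 9.09% in αRes2. For all but the missing filter the cause was not tested.

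With each replicate left out in turn, the near share was 1.52% to 3.03% in αRes1 (3.03% without αMut1 replicate 5, 6 or 7), 4.55% to 7.58% in αRes2 (7.58% without αMut1 replicate 6), and 7.81% to 21.9% in βMut1 (7.81% without βMut1 replicate 3, 21.9% without βMut1 replicate 1). The number of the 10 genes called between the sets of αRes2 was 2 to 4, with 4 without αRes2 replicate 4.

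The labels do not say what the replicate numbers stand for, and in αRes1 and αMut1 the numbers went with the split. Deviations from line means correlated above 0.1 in 11 of 84 same-numbered α pairs (median r -0.00523). They did so in 26 of 36 same-numbered β pairs (median r 0.202). Pairs with different numbers had a median r of 0.00105 among α libraries and -0.0635 among β libraries. Same-numbered β libraries thus were more alike, which the main fits did not model, and the cause was not tested. A fit with a replicate block gave a near share of 3.03% in αRes1, 9.09% in αRes2 and 22.7% in αRes3, and 1.96% of relatives in αRes1, and moved no other share over 1.5 times.

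The depth of αRes2 replicate 3 (4270215 counts) limits what can be told from its low levels. Each line edited at a G4 motif was to stand for 1 clone, so a switch cannot be told apart from the clone that carries it, and more libraries of a clone add no clone. Fewer cells with a gene and less RNA per cell cannot be told apart in these bulk libraries.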

Other observations

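A further property followed the number sets. Over 5 pseudoautosomal genes, 16 libraries (αRes1 replicates 5 to 8, αRes2 replicates 5 to 8, αRes3 and αRes4) had 4765 to 20653 counts, and the other 46 libraries at most 1. In αRes1 and αRes2 this cannot be told apart from the number set, and in αRes3 and αRes4 against αMut1 it cannot be told apart from the line. The reference behind each library's counts is not given in the sources used here. αMut1 did not carry it in either set, although its replicates 1 to 4 were closest in state to αRes1 replicates 5 to 8.

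Over all genes, WT-HS3Δ and βMut-HS3Δ, both with HS3 deleted, had 123 genes in opposite states, fewer than either had from its parent line (304 for WT-HS3Δ against βWT and 389 for βMut-HS3Δ against βMut1). Among the 10 genes, LRATD1, VGLL3, ELSPBP1 and ETS1 were off in both HS3 deletions, whereas S100A6, CALN1, IL1RAP, FSTL5 and USP44 had opposite states in them. Only LRATD1 was off in no other β line. ELSPBP1 was off in every β line including βWT, VGLL3 also in βMut1 and βMut2, and ETS1 also in βMut2.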
